A study of Mus musculus with 18 samples.

Results

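The 10 genes described here mark the path from a fibroblast-like progenitor to a fat-storing cell. They were followed in newborn spleen, liver and brain and in cultured fibroblasts of female mice with a homozygous or heterozygous Xist deletion. The genes are Pdgfra, Cebpd, Pparg, Cebpa, Lpl, Cd36, Fabp4, Plin1, Plin4 and Adipoq, taken by name from 45229 annotated genes. The set was put together because Pdgfra and Fabp4 were higher in mutant spleen, so every value in spleen is a description of that choice and carries no test. Tests were made in liver, brain and fibroblasts, whose values that rule did not use. The members were still chosen with earlier results of these data known, so these tests are not free of that knowledge. The labels do not say whether the 3 organs came from the same animals, so the organs may not be independent of each other.

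Xist is the noncoding RNA that coats and silences 1 X chromosome in each cell of a female. Mutants were labelled as carrying a homozygous Xist deletion and controls a heterozygous one, so both genotypes carried at least 1 deleted allele. The control columns of the tables are named WT, and the labels were followed. The sources used here do not give how the deletion was made or any promoter that drove it. The 18 libraries formed 8 groups: primary tail-tip fibroblasts with 3 control and 3 mutant libraries, and spleen, liver and brain of postnatal day 1 with 2 control and 2 mutant libraries each. The design text names heart where the sample labels name brain.

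Adipocytes arise from stromal cells of connective tissue, many of which carry PDGFRA on their surface. Hormonal signals, glucocorticoids among them, switch on C/EBP-delta and C/EBP-beta early, and these lead to PPAR-gamma and C/EBP-alpha, which hold the fat cell program in place. Enzymes and carriers then bring fatty acids into the cell, and perilipins coat the droplets in which they are stored. Most of these genes also work elsewhere: C/EBP-alpha in hepatocytes, CD36 and FABP4 in endothelium and macrophages, and PDGFRA in precursors of oligodendrocytes.

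Libraries held 12.4 M to 29.2 M reads in genes. Values are the signal the authors deposited, a read count scaled for library size, in which 3 reads, the most that a count of 0 allows at 95% confidence, were worth 0.103 to 0.225. That limit covers counting error only. Xist was lower in every mutant library of its tissue, with control means 3.05-fold higher in liver, 11.6-fold in fibroblasts, 13.9-fold in spleen and 174-fold in brain. Mutants still held Xist reads, at a mean signal of 217 in liver, 83.9 in spleen, 8.94 in fibroblasts and 3.88 in brain. Why the remainder differs between tissues was not tested. Spleen mutant 1 stood apart with reads in 32381 genes, against 25166 to 26940 in the other spleen libraries. Albumin and the other hepatocyte markers summed to 117315 or more in each liver library and to 997 or less in any other, and oligodendrocyte progenitor markers to at least 327 in each brain library and at most 130 elsewhere. Collagen genes and other stromal markers summed to 12395 or more in each fibroblast library. Erythroid markers summed to 17107 or more in each spleen library, but ran from 7361 to 28080 in liver and so do not set spleen apart.

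Beginning with the receptor of the progenitor, Pdgfra (ENSMUSG00000029231, GRCm38 chromosome 5, 75152292 to 75198215, plus strand) had a signal of 108.6 and 145.8 in the control spleens, against 516.0 and 455.2 in the mutant ones. Both mutant spleens lay above both controls, a 3.82-fold difference of the means, and the log2 difference was 1.94 with a standard error of 0.30. In liver the signal of Pdgfra was 23.0 and 18.7 in controls and 26.3 and 26.9 in mutants. The groups did not overlap here either, but the log2 difference of 0.35 ± 0.22 (SE, n = 2 per group) missed the threshold (limma adjusted p = 0.843, 95% interval -0.20 to 0.91). Brain libraries held 71.3 and 70.6 in controls and 76.7 and 67.6 in mutants, a log2 difference of 0.02 with an interval of -0.24 to 0.28. Fibroblasts held 177.2, 104.1 and 82.4 in controls and 77.2, 174.3 and 76.7 in mutants. The fibroblast groups overlapped through mutant 2 alone, and the log2 difference was -0.19 ± 0.41 (SE, n = 3 per group, limma adjusted p = 0.9997). Whether the spleen difference exceeds that of the other tissues was not tested, since the tables were normalized separately and the gene was chosen on spleen.

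In whole tissue, more cells that carry a transcript and more RNA per cell cannot be told apart. Stromal markers were also higher in mutant spleen: 11 of 12 had a log2 difference above 0, with a median of 0.78 against -0.07 over all 16578 genes tested, and their summed signal was 2020 and 2670 in controls and 4462 and 3287 in mutants. None of the 12 was at 0. Col1a1, a fibrillar collagen, had a signal of 383.6 and 434.9 in controls and 1095 and 464.4 in mutants, and Pdgfrb, the sister receptor of pericytes and stroma, 232.5 and 394.8 against 407.2 and 416.3. Of the 12 markers, 4 had a log2 difference of at least 1. As description only, like every spleen value, DESeq2 called 1 of them, Dcn, beside 1.12% of all genes in either direction. The part of these markers in the difference of Pdgfra was not tested. In brain, where oligodendrocyte precursors carry Pdgfra, 1 of 8 precursor markers had a difference above 0 and the median was -0.17. Over all brain genes these were 46.1% and -0.01. The precursor sums were 385 and 415 in controls and 327 and 373 in mutants.

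**Figure D1:**
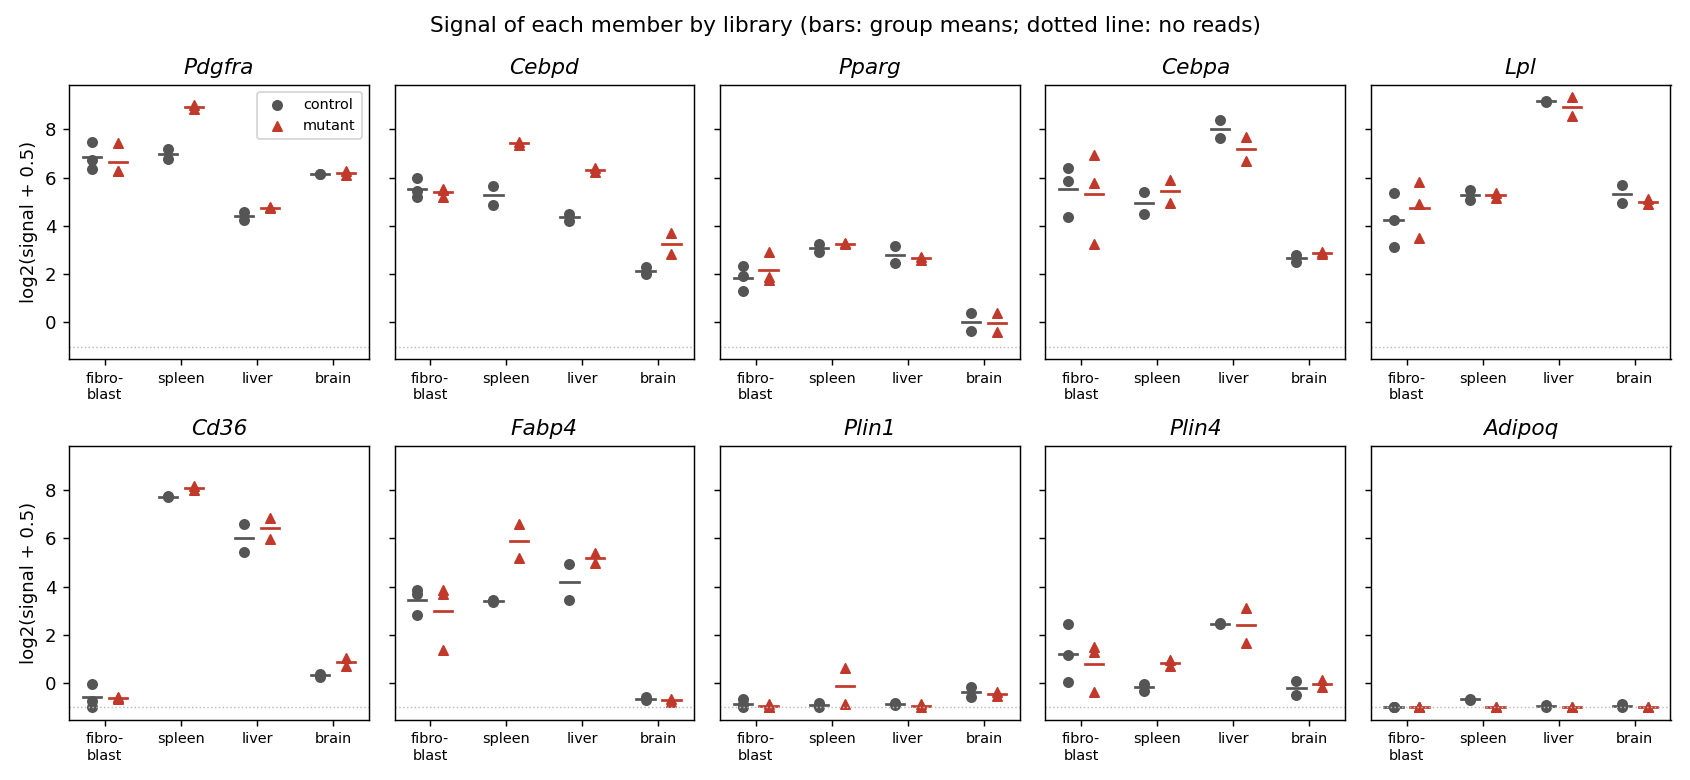
Signal of the 10 genes as log2(signal + 0.5) in each library, by tissue, with circles for control and triangles for mutant libraries, short bars for group means and a dotted line at no reads. Pdgfra, Cebpd and Fabp4 of the 2 mutant spleens lie above both controls, Cebpd of the 2 mutant livers lies above both controls, and Adipoq lies at or near 0 throughout.

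Cebpd (ENSMUSG00000071637, chromosome 16, 15887286 to 15891031, plus strand) encodes C/EBP-delta, an early and hormone-responsive factor of the program, and had the largest log2 difference of the tested members in liver and in brain. Its signal in liver was 18.1 and 22.2 in controls and 84.5 and 75.5 in mutants. Both mutant livers were several-fold above both controls, and the means differed 3.97-fold. The log2 difference was 1.97 ± 0.22 (SE, n = 2 per group), with a 95% interval of 1.40 to 2.53, and it missed the threshold after adjustment over 15075 genes (limma adjusted p = 0.218). On recovered reads DESeq2 gave 1.93 and passed it (adjusted p = 1.02e-07), while edgeR gave 1.94 and did not (adjusted p = 0.273). Over all alternatives run, the adjusted p of limma, edgeR or DESeq2 ranged from 1.02e-07 to 0.854, and the difference from 1.83 to 2.11.

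In spleen, Cebpd had a signal of 28.9 and 50.2 in controls against 179.4 and 160.9 in mutants, 4.30-fold apart and without overlap. In brain the gene was much lower, with 4.37 and 3.47 in controls and 12.5 and 6.55 in mutants. Again both mutants were higher, by a log2 difference of 1.12 ± 0.30 (SE, n = 2 per group, 95% interval 0.44 to 1.81, limma adjusted p = 0.843, DESeq2 adjusted p = 0.179). Without brain mutant 2 it was 1.57 and passed (limma adjusted p = 0.0385), and without mutant 1 it was 0.68, with adjusted p of limma, edgeR or DESeq2 from 0.0385 to 1.000 over the alternatives. Fibroblasts showed no such separation: controls held 36.6, 43.4 and 62.1 and mutants 44.5, 45.6 and 36.3, a log2 difference of -0.14 with an interval of -0.66 to 0.38. Each of the 6 mutant organ libraries thus lay above both controls of its organ, while the fibroblast groups overlapped.

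Cebpb, which acts beside Cebpd early in the program, was picked for naming after its values were seen. Its signal was 53.9 and 87.1 in control livers against 156.5 and 125.3 in mutants, with a log2 difference of 1.03 ± 0.31 (SE, n = 2 per group, limma adjusted p = 0.675). Its groups did not overlap in liver or in spleen (64.9 and 98.6 against 174.0 and 143.0), but overlapped in brain and fibroblasts.

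Pparg (ENSMUSG00000000440, chromosome 6), the receptor on which fat cell formation depends, was low everywhere and did not follow Cebpd. Its signal was 6.96 and 9.06 in control spleens against 8.94 and 9.33 in mutants, a log2 difference of 0.19 with a standard error of 0.32. Livers held 5.02 and 8.36 in controls and 6.04 and 5.56 in mutants, and the groups overlapped (-0.15 ± 0.31, SE, n = 2 per group, limma adjusted p = 0.969, 95% interval -0.94 to 0.64). In fibroblasts controls held 3.24, 4.59 and 2.00 and mutants 3.20, 2.93 and 6.98, with a log2 difference of 0.33 and an interval of -0.63 to 1.30. In brain, 4 to 19 reads per library left it below the level tested, a table mean of 1.

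Cebpa (ENSMUSG00000034957, chromosome 7, 35119293 to 35121928, plus strand), the partner of Pparg in fat and a factor of hepatocytes, was lower on average in mutant liver, the opposite side from Cebpd. Control livers held 200.3 and 337.7 and mutant livers 103.3 and 203.1, so the higher mutant lay just above the lower control. The log2 difference of -0.84 ± 0.44 (SE, n = 2 per group, 95% interval -1.98 to 0.30) missed the threshold by limma (adjusted p = 0.817) and DESeq2 (adjusted p = 0.731). It was -0.36 without mutant 1, -1.33 without mutant 2 and -0.47 without control 2. Between same-numbered libraries it was -0.95 and -0.73, though the labels pair no libraries. With the replicate number as a block, limma gave -0.84 with a standard error of 0.14 and still missed the threshold (adjusted p = 0.0920). Summed hepatocyte markers were 138591 and 117315 in control livers against 138442 and 119714 in mutants. Cebpa in spleen was 21.7 and 41.3 in controls and 30.8 and 59.2 in mutants, and these overlapped. In brain it was 5.19 and 6.52 against 7.04 and 6.69, with a log2 difference of 0.22 whose interval ran from -0.26 to 0.70.

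RefSeq promoter windows, 250 bases before to 50 after a start site on GRCm38.p6, were on hand for 7 of the 10 genes, in 9 windows; Fabp4, Cebpd and Lpl had none. Both strands were searched for TTGCNNAA, a short form of the C/EBP site, which occurs in 10.8% of 32851 such windows, and which 3 of the 9 held. Those 3 belong to a gene that was higher in mutant spleen, a gene whose groups overlapped and a gene near 0, and they are shown for that contrast, upstream bases only, with capitals marking matches to TTGCNNAA or, in Pparg, also to CCAAT (in 37.4% of windows).
Pdgfra, chr5:75152001-75152250, plus strand: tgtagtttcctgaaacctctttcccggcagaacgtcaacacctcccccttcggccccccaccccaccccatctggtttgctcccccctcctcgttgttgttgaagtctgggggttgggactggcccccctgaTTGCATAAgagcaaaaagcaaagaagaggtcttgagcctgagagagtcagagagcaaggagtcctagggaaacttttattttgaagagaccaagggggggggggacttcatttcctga
Pparg window 3, chr6:115421816-115422065, plus strand: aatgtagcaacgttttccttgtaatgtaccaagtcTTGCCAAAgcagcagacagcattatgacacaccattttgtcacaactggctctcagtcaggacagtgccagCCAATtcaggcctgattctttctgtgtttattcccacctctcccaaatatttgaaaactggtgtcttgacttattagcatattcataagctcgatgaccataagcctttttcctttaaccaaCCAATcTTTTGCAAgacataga
Plin1, chr7:79732777-79733026, minus strand: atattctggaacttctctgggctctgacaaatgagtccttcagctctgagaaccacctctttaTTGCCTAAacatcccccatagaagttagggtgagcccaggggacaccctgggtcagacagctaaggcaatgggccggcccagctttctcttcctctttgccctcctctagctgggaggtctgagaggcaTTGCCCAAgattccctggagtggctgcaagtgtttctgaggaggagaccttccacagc
The Pdgfra match TTGCATAA starts at -118 from the start site, and a further one, TTAAGCAA, starts at 13. The Pparg matches TTGCCAAA and TTTTGCAA start at -215 and -16, the second just after a CCAAT at -22, and the Plin1 matches TTGCCTAA and TTGCCCAA at -187 and -58. GNACA followed by TGTNC with 3 bases between, a form of the glucocorticoid response element found in 0.475% of windows, was in none of the 9, nor was AGGTCA repeated with 1 base between, the form bound by PPAR-gamma with its partner RXR, found in 0.0396%. TATAAA, in 13.6% of windows, lay at -30 of Cebpa and, on the other strand, at -29 of Pparg window 2. A match of letters shows neither a bound site nor a cause.

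Among the genes that capture fatty acids, Lpl encodes the lipase that frees them from circulating lipoproteins (ENSMUSG00000015568), and its level did not separate the genotypes in any tissue. Per kilobase of transcript it was the highest of the 10 in liver, at 138 in controls. Livers held 570.2 and 568.2 in controls and 639.8 and 377.7 in mutants (log2 difference -0.21 ± 0.34, SE, n = 2 per group, limma adjusted p = 0.954). Spleens held 33.0 and 44.7 against 40.6 and 35.5. Brain libraries held 51.0 and 30.1 against 29.4 and 34.1, a log2 difference of -0.30 with an interval of -0.81 to 0.21, and control 1 stood above the other 3.

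Cd36 (ENSMUSG00000002944, chromosome 5, 17781690 to 17888801, minus strand) encodes a fatty acid receptor of fat cells, macrophages and endothelium. It was the highest of the 10 in control spleen per kilobase, at 62.1. Its spleen signal was 208.4 and 214.0 in controls and 285.6 and 259.2 in mutants, without overlap but only 1.29-fold apart. Liver libraries overlapped, with 94.8 and 42.8 against 114.1 and 62.7, the libraries numbered 1 being higher in both genotypes. In brain it was 0.819 and 0.686 in controls and 1.55 and 1.16 in mutants, from 15 to 26 reads, and its mean reached the level tested only through the mutants (log2 difference 0.56 ± 0.29, SE, n = 2 per group, limma adjusted p = 1.0000). Fibroblasts held at most 11 reads.

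Fabp4 (ENSMUSG00000062515, chromosome 3, 10204088 to 10208576, minus strand) encodes the fatty acid carrier abundant in fat cells, also made by capillary endothelium and macrophages. Its signal was 10.5 and 9.66 in control spleens against 96.3 and 35.9 in mutants. Both mutants were above both controls, 6.56-fold by the means, but they differed from each other by more than the controls did. Without spleen mutant 1, the library that stood apart, the log2 difference of 2.49 became 1.79, and without mutant 2 it became 3.20. Liver libraries held 30.0 and 10.5 in controls and 41.3 and 31.0 in mutants, so the lower mutant only just exceeded the higher control. The liver log2 difference was 0.98 ± 0.52 (SE, n = 2 per group), with an interval of -0.35 to 2.32 and a limma adjusted p of 0.817, and it was 1.72 without control 1 and 0.25 without control 2. In fibroblasts controls held 13.9, 12.5 and 6.54 and mutants 2.09, 14.2 and 12.4, overlapping. Brain libraries held 2 to 4 reads each, at the limit of detection.

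Endothelial and macrophage markers bear on Fabp4 and Cd36. In spleen, 11 of 12 endothelial markers had a log2 difference above 0 with a median of 0.60, beside 43.5% and -0.07 over all genes. Their sum was 980 and 1338 in controls and 1814 and 1420 in mutants. Emcn, a capillary and venous marker, is named because it alone of the 12 was called by DESeq2, beside 1.12% of all genes. That call is description only. Emcn was also the only one of the 12 with a log2 difference of at least 1, so it does not stand for the list. Like Fabp4, Emcn was highest in mutant 1: 3.52 and 5.07 in controls and 36.1 and 10.6 in mutants. Macrophage markers did not separate, at 931 and 1286 against 829 and 1679. In liver, 11 of 12 endothelial markers were also above 0, with a smaller median of 0.26, beside 55.9% and 0.05 over all genes. The liver sums were 548 and 696 in controls and 739 and 755 in mutants. No marker of either list was at 0 in all spleen or liver libraries, and their part in the levels of Fabp4 was not tested.

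Plin1 and Adipoq, genes of mature fat cells, were near the limit of detection. Adipoq (ENSMUSG00000022878), which encodes adiponectin, had 0 reads in all 6 fibroblast libraries and all 6 mutant organ libraries, and at most 2 reads in a control organ library. Plin1 (ENSMUSG00000030546), which coats the large droplet of white fat, had 14 reads in spleen mutant 1, a signal of 1.05, and at most 1 read in each other spleen library. That reading came from the library with reads in most genes. Brain held 3 to 9 reads of Plin1 in each library, and liver and fibroblasts at most 3.

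Plin4 (ENSMUSG00000002831), a coat protein of small droplets also found in muscle, was measurable in liver and fibroblasts. Liver held 5.09 and 4.98 in controls and 2.71 and 8.17 in mutants, the mutants lying on either side of the controls. In spleen it had 7 and 5 reads in controls and 19 and 21 in mutants, a signal of 0.483 and 0.298 against 1.43 and 1.13, below the level tested. Cidec, a droplet fusion protein named after its values were seen, had a liver signal of 9.22 and 9.25 in controls and 3.00 and 14.8 in mutants, which lay on either side of the controls as for Plin4, and was 0 in every fibroblast library.

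**Figure D2:**
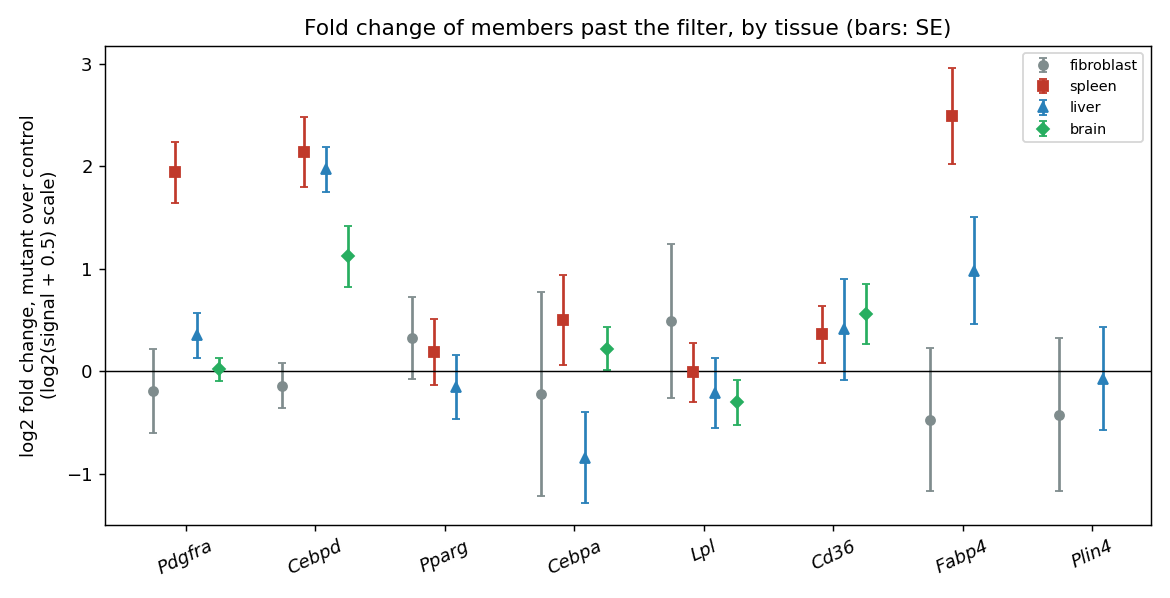
Log2 difference of mutant against control on the log2(signal + 0.5) scale (points, a shape for each tissue) with the standard error (bars) for the 8 genes that passed the level filter in at least 1 tissue. Cebpd lies at 2.14 in spleen, 1.97 in liver and 1.12 in brain, whereas Pdgfra and Fabp4 lie high in spleen, and all 7 fibroblast points lie within 1 standard error of 0.

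By count, 7 of the 10 genes passed the level filter in fibroblasts, 7 in spleen, 8 in liver and 5 in brain. Limma called 0 of them in liver, where it called 0% of all genes, 0 in fibroblasts, also with 0% of all genes, and 0 in brain, with 0.0237%. At an unadjusted p under 0.05, limma had 1006 genes in liver, 127 in fibroblasts and 688 in brain. edgeR called 0 genes in liver and in fibroblasts and 4 in brain, none of them a member. DESeq2 called 1 member in liver, Cebpd, with 0.955% of all genes called higher, and 0 in brain and fibroblasts, with 0.242% and 0.0230% called in either direction. Mutants lay wholly above controls for 3 members in liver (Pdgfra, Fabp4 and Cebpd), beside 23.5% of all genes, and for 0 in fibroblasts, beside 2.07%. In brain they did so for Cebpa and Cebpd, beside 13.8% of all genes, and for Cd36, which had to be higher in mutants to pass the filter and is not counted. In spleen this held for 4 members (Pdgfra, Fabp4, Cebpd and Cd36), beside 18.3% of all genes, from which nothing is read. Over all spleen genes, DESeq2 called 1.12% and limma with the replicate number as a block 2.15%, and members carry no test there. With that block limma called Cebpd in liver (adjusted p = 0.0449), where 0.398% of all genes were called.

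Fibroblasts carried a pattern of another kind, a wide spread between cultures that did not follow genotype. Cebpa had a signal of 57.9, 84.0 and 20.1 in controls and 9.05, 121.9 and 54.0 in mutants, so the highest culture was 13.5-fold above the lowest. Lpl was 41.0, 18.4 and 8.32 in controls and 10.8, 56.3 and 29.4 in mutants, a 6.76-fold range. Plin4 was 5.03, 1.74 and 0.534 in controls and 0.278, 2.31 and 1.96 in mutants. For Cebpa, Fabp4, Lpl and Plin4, a grouping made after their values were seen, control 3 and mutant 1 were the 2 lowest cultures, as they were for 16.4% of the 13077 genes tested. Over all 13077 genes, control 3 and mutant 1 deviated together from their group means (Pearson r = 0.54), so their likeness is not particular to these members. The other 3 tested members did not have those 2 cultures lowest. Pparg was lowest in control 3 and mutant 2 and ranged 3.48-fold, while Pdgfra and Cebpd ranged 2.31-fold and 1.71-fold.

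Genes around them differed between the same cultures. Ebf1, an early B-cell factor that also promotes fat cell formation, was lowest in the same 2 cultures, with 147.7, 242.2 and 86.4 in controls and 96.7, 350.3 and 166.9 in mutants. Mgll, the lipase that finishes the breakdown of triglyceride, had the opposite order, 8.85, 47.1 and 110.5 in controls and 154.4, 2.67 and 89.9 in mutants. Plin2, the common droplet coat of cells other than fat cells, was also highest in these 2 cultures, at 195.0 in control 3 and 203.0 in mutant 1, against 86.5 to 160.2 in the others. No cause of this spread was tested, and macrophage markers summed to at most 4.79 in any culture.

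**Figure D3:**
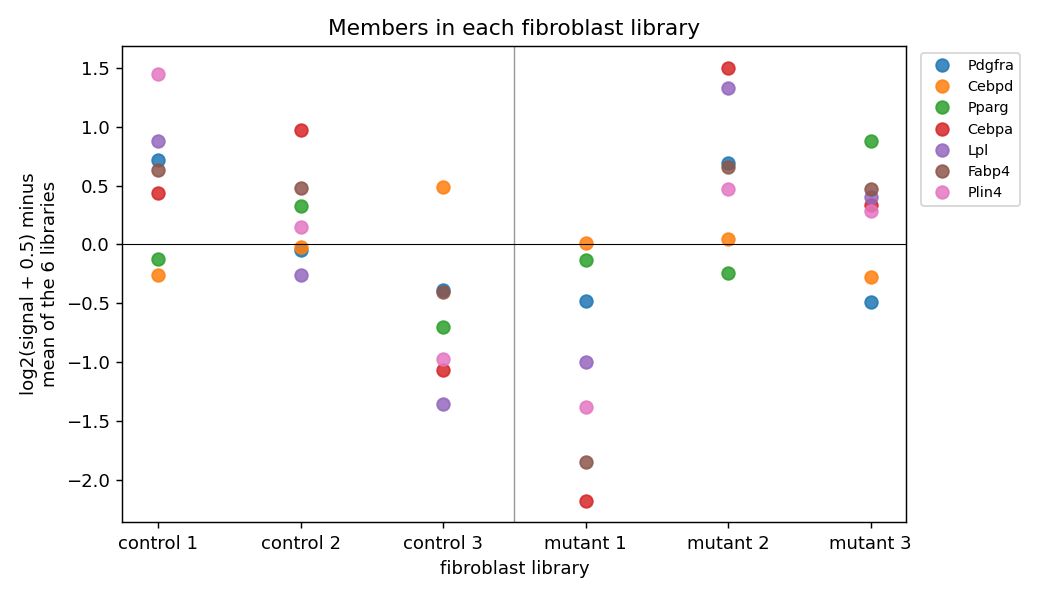
Log2(signal + 0.5) of the 7 tested genes in each of the 6 fibroblast cultures, relative to the mean of the 6, with a colour for each gene. Points for Cebpa, Fabp4, Lpl and Plin4 lie below 0 at control 3 and mutant 1, while Cebpd stays near 0 in every culture, at a signal of 36.3 to 62.1.

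Related genes of the pathway, 99 in 8 lists that hold no member, were counted next, and the lists were drawn up with earlier results of these data known. In liver 80 were tested, 47 had a log2 difference above 0 and their median was 0.11, beside 55.9% and 0.05 over all genes. Limma called 0 of them, and DESeq2 called 7 higher and 4 lower, where it called 0.955% and 0.444% of all genes. In brain 79 were tested, with 38 above 0, a median of -0.01 and 0 calls by limma or DESeq2. In fibroblasts 70 were tested, with 37 above 0, a median of 0.01 and again 0 calls by either tool. In spleen, described only, 52 of 80 lay above 0 with a median of 0.23, beside 43.5% and -0.07 over all genes.

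The genes DESeq2 called in liver sit at several steps of lipid handling, and none passed by limma. Lpin1, the phosphatase that makes diacylglycerol for triglyceride and also acts as a coactivator, had a signal of 47.6 and 35.0 in controls against 1652 and 834.8 in mutants, 30.1-fold apart (DESeq2 adjusted p = 2.5e-21, limma adjusted p = 0.134). Both mutant livers were more than an order of magnitude above both controls. Angptl4, an inhibitor of the Lpl enzyme, was 97.0 and 100.5 in controls and 272.5 and 298.1 in mutants, while Lpl itself overlapped as given above. Pnpla2, the first lipase of stored triglyceride, was 114.7 and 164.0 in controls and 317.2 and 373.6 in mutants. G0s2, the protein that inhibits it, was 81.3 and 58.6 in controls and 4.14 and 21.7 in mutants, and Mgll was also lower at 92.1 and 123.7 against 56.6 and 39.7.

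Of the carriers related to Fabp4, 2 were lower in mutant liver by DESeq2. Fabp1, the main form of hepatocytes, was 357.4 and 533.8 in controls and 135.3 and 172.8 in mutants (DESeq2 adjusted p = 4.2e-04, limma adjusted p = 0.522). Fabp5 was 40.6 and 47.6 against 17.4 and 7.76. Both thus lay on the opposite side from Fabp4, whose own liver difference did not pass.

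Among the transcription factors, Klf15, a factor of late fat cell formation and of fasting metabolism, had a liver signal of 60.3 and 138.1 in controls against 326.4 and 296.2 in mutants (DESeq2 adjusted p = 0.0256, limma adjusted p = 0.605). Its spleen signal was 3.45 and 3.04 against 61.6 and 49.5, 17.1-fold apart. Ppargc1a, the coactivator that drives gluconeogenic and oxidative genes, was 27.4 and 44.3 in control livers against 218.2 and 146.2 in mutants. Klf2, which restrains Pparg, was 5.85 and 7.88 against 38.5 and 15.5, and Pck1, which makes glycerol precursors in fat and glucose in liver, was 1396 and 2097 against 4282 and 4216. Of 6 other PDGF ligands and receptors in spleen, 5 had both mutants above both controls, beside 18.3% of all genes. The median log2 difference of the 6 was 0.64, beside -0.07 over all genes. DESeq2 called 0 of them, and these spleen values are described only. Among the 5 was Pdgfb, a ligand, at 18.2 and 24.5 in controls against 33.3 and 31.8 in mutants. Pdgfa, 1 of the ligands that bind Pdgfra, was the only one of the 6 that overlapped, at 17.6 and 17.5 against 12.7 and 20.3. Elsewhere 0 of 5 tested members of that list in liver, 0 of 6 in brain and 0 of 5 in fibroblasts were called by limma or DESeq2.

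Cebpd and Klf15 are both known to be induced by glucocorticoids, and a list of 10 other glucocorticoid-induced genes was followed beside them. That list, too, was drawn up with earlier results of these data known. In liver all 10 had a log2 difference above 0, with a median of 1.73, beside 55.9% and 0.05 over all genes. The summed signal was 1045 and 1215 in controls and 3031 and 2503 in mutants. DESeq2 called 5 of the 10 higher, beside 0.955% of all genes, and limma called 0. Tsc22d3, a classical glucocorticoid target, was 15.6 and 18.6 in control livers against 112.1 and 55.0 in mutants. In spleen 8 of 10 lay above 0 with a median of 2.09, beside 43.5% and -0.07 over all genes. The spleen sum was 657 and 498 against 2210 and 1513. Brain had a median of 0.36 with 10 of 10 above 0, beside -0.01 and 46.1% over all genes. Its sums were 301 and 291 against 412 and 350, with 0 calls by limma or DESeq2. Fibroblasts had a median of -0.04 with 3 of 9 above 0, and their sums overlapped. Nr3c1, the glucocorticoid receptor gene itself, overlapped between groups in every tissue. The part of these genes in the level of Cebpd was not tested.

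**Figure D4:**
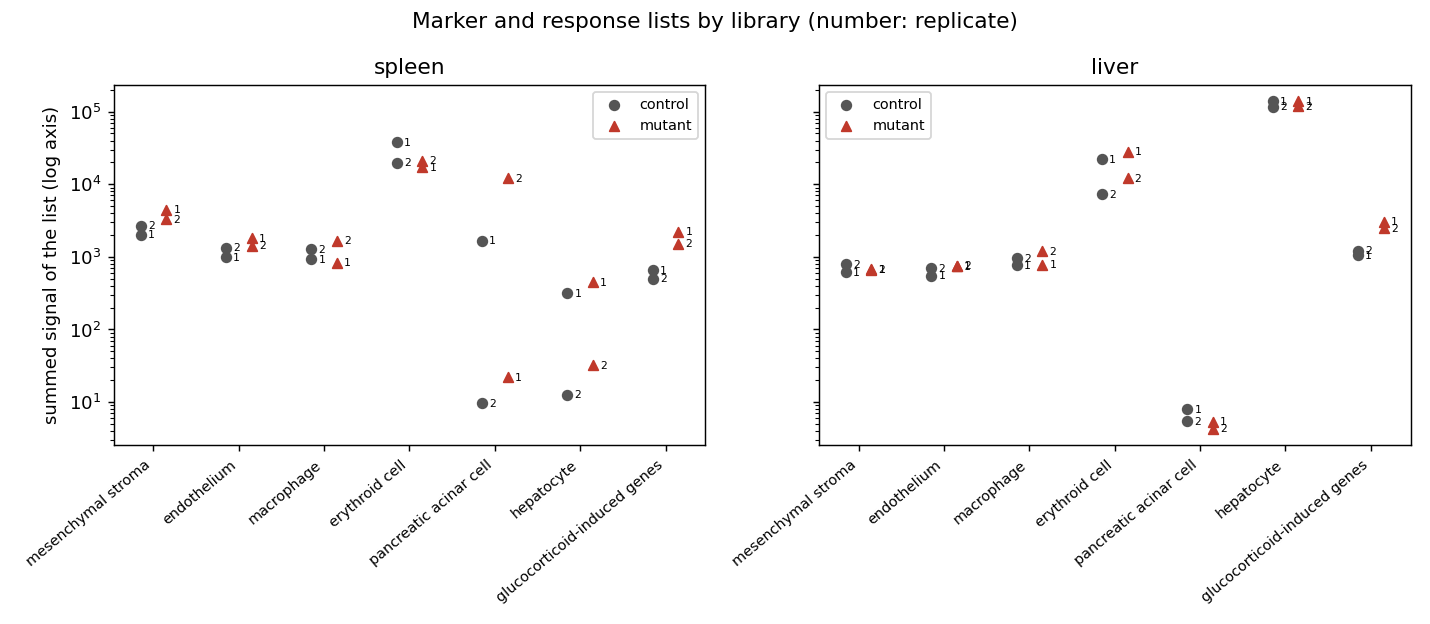
Summed signal (log axis) of 7 gene lists in each spleen and liver library, with circles for control and triangles for mutant libraries and the replicate number beside each. In both organs the glucocorticoid-induced sums of both mutants lie above those of both controls, and the pancreatic acinar sum in spleen runs from 9.60 to 12099 without following genotype.

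Other tissue in the dissected organs varied between single libraries. Pancreatic acinar markers in spleen summed to 1662 and 9.60 in controls and 21.9 and 12099 in mutants, so 1 library of each genotype was high, and hepatocyte markers in spleen summed to 318 and 12.6 against 444 and 32.2. Mesothelial markers were 160 and 215 against 135 and 297. The part of these tissues in the spleen values was not tested. Erythroid markers in spleen summed to 37709 and 19810 in controls and 17107 and 20970 in mutants. There 0 of 8 lay above 0 with a median of -0.87, beside 43.5% and -0.07 over all genes. In liver the erythroid sums were 22258 and 7361 against 28080 and 12122, higher in the libraries numbered 1, as Cd36 and Fabp4 were. Stellate cell markers of liver had 0 of 8 above 0 and a median of -0.39, beside 55.9% and 0.05 over all genes. They summed to 541 and 544 in controls and 469 and 500 in mutants. Of the brown fat markers, Ucp1, named after its values were seen, had 0 reads in each spleen and fibroblast library.

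Genes whose signal followed Pdgfra most closely across the 18 libraries, each centred on its tissue mean, were Slc25a27 (Pearson r = 0.96), 1700025G04Rik (0.96), Fam102b (0.93), 9530026P05Rik (0.90) and Greb1 (0.89), out of 11439 compared. Those nearest to Fabp4 were Nptxr (0.91), Wdr60 (0.90), Hif1a (0.89), Lgr4 (0.89) and Adamts1 (0.88). All 10 had a spleen log2 difference above 0, from 0.70 to 3.00. Picking genes by likeness to Pdgfra and Fabp4, whose largest log2 differences are in spleen, favours such a result. The points share libraries and depth, Pdgfra and Fabp4 were chosen for their spleen difference, and the coefficients are a description with no p.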

How the data were processed

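RNA of 18 libraries was measured. Per the labels' protocols, Trizol-extracted RNA was depleted of ribosomal RNA and read at 50 nt on HiSeq instruments. Per the submitters' processing notes, GRCm38 was the genome, HTSeq 0.6.1 counted reads and edgeR scaled them. The sources used here do not name the aligner, the annotation release or whether strand was used, so overlapping antisense transcripts may share reads. The deposited signal is the authors' scaled count, in 4 tables normalized separately, and all nonzero values were whole multiples of 1 read at a tolerance of 0.05, so reads were recovered. Names and coordinates came from GENCODE mouse release 21, which matched 45229 of 46078 identifiers. The other 849 held at most 0.179% of reads and were left out. Levels per kilobase use the longest principal transcript.

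Within each table, log2(signal + 0.5) of genes with a mean of at least 1 was fitted with limma 3.58.1 (trend, two-sided) in R 4.3.3, with Benjamini-Hochberg adjustment over all genes at 0.05. Alternatives were a pseudocount of 0.1, no filter, plain CPM scaling, DESeq2 1.42.0 and edgeR 4.0.16 (quasi-likelihood) on recovered reads, the replicate number as a block, and leaving out each library. Log2 differences understate changes of low genes. The members and lists were chosen with earlier results of these data known. Genes named are the members, the 3 highest and the called genes of each list, the nearest genes of Pdgfra and Fabp4, and others said to be chosen after their values were seen. Spleen values carry no test, since the members were chosen on them.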

Additional observations from a re-analysis of the deposited data

How the results depend on the processing

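Of 162 member values under alternatives that kept all libraries, 146 kept direction and side of the threshold. Another 7 changed sign and 9 newly passed. The 9 were of Pdgfra, Fabp4 and Cebpd in spleen, where members carry no test, and of Cebpd in liver. Of 122 member values on leaving out a library, 21 changed sign. No value that had passed was lost, since none had. Apart from leaving out a library, log2 differences changed sign for Cebpa in fibroblasts (0.19 with DESeq2, 0.20 with edgeR), Lpl in spleen (0.07 with plain CPM scaling, 0.02 with DESeq2, 0.03 with edgeR) and Plin4 in liver (0.04 with DESeq2, 0.05 with edgeR). Leaving out 1 library turned the sign of 14 member differences. In fibroblasts the ranges were Pdgfra -0.58 to 0.12, Fabp4 -0.92 to 0.33, Pparg -0.02 to 0.58, Cebpa -1.03 to 0.81, Cebpd -0.30 to 0.07, Lpl -0.07 to 1.11 and Plin4 -1.01 to 0.20. In spleen the range was Lpl -0.23 to 0.20. In liver the ranges were Pparg -0.49 to 0.19, Cd36 -0.16 to 0.97, Lpl -0.59 to 0.17 and Plin4 -0.79 to 0.65. In brain the ranges were Pdgfra -0.07 to 0.11 and Lpl -0.68 to 0.07. The cause was not tested.

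Counts of called genes moved most. In spleen, where members carry no test, members called went from 0 to 1 with no filter (Cebpd), 3 with DESeq2, and 0 to 2 on leaving out a library (Cebpd without mutant 1, Cebpd and Fabp4 without mutant 2), and all genes called to 22, 182, and 0 to 173 (highest without mutant 2, and 170 without mutant 1). In liver, members called went to 1 with DESeq2 (Cebpd), and all genes called to 11 with no filter and 211 with DESeq2. In brain, members called ranged from 0 to 1 on leaving out a library (Cebpd without mutant 2), and all genes called from 6 to 112 (the highest without control 2), with 13 without the filter and 41 with DESeq2. DESeq2 called 3 genes in fibroblasts. Plain CPM scaling moved the median of all genes by at most 0.08.

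Replicate numbers pair no libraries by the labels. Deviations of same-numbered libraries correlated at 0.58 in liver, -0.03 in spleen, 0.08 in brain, and -0.08, 0.43 and 0.02 in fibroblasts, where not every library correlated best with its own number. With the replicate block, limma called 3 members and 356 genes in spleen, where members carry no test. In liver it called 1 member and 60 genes, and in brain and fibroblasts 0 members, with 4 and 0 genes. With 2 libraries a group, leaving out 1 leaves a lone library, assumed to vary like the others.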
